A study of Caenorhabditis elegans with 9 samples.

Results

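The *ttr* genes of *Caenorhabditis elegans* encode transthyretin-related proteins, and 49 of them were followed here across 3 groups of larvae. Members were the genes whose name is ttr- followed by a number and whose mean was at least 0.5 CPM (counts scaled to library size) over the 9 libraries in the authors' deposited CPM table. Of 58 *ttr* genes among the 20444 genes measured, 49 met that rule and 9 did not. The members just inside the threshold were *ttr-22* at a mean of 0.582 CPM and *ttr-56* at 0.610 CPM. Just outside were *ttr-11* at 0.463 CPM and *ttr-58* at 0.417 CPM. The remaining genes below it were *ttr-13*, *ttr-19*, *ttr-42*, *ttr-50*, *ttr-52*, *ttr-55* and *ttr-57*, with *ttr-19* at 0 in every library.

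Transthyretin-related proteins form a large family found in nematodes. Most are small, are predicted to be secreted, and share a fold with vertebrate transthyretin, a carrier of thyroid hormone and retinol-binding protein in blood. They are distinct from the 5-hydroxyisourate hydrolases, the relatives of transthyretin that act in urate breakdown in many organisms. For most worm members no function is established. In *C. elegans*, TTR-52 bridges phosphatidylserine on dying cells to the engulfment receptor CED-1, and TTR-33 protects dopaminergic neurons from oxidative damage.

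RNA was sequenced from whole animals at larval stage 4 (L4), the last stage before adulthood. Wild-type animals (genotype WT) had mothers supplied with vehicle. The other groups both carried the allele gk849 of *nhr-114*, which encodes a nuclear hormone receptor related to HNF4, with mothers supplied either with vehicle or with vitamin B12 at 8 µM. Each group had 3 libraries, and a wild-type group with B12 was not analysed here. Since the labels leave the origin of the replicates unsaid (separate cultures or not), a p-value reflects only how far these particular libraries spread, which may be technical. Because whole animals were used, fewer cells of a type and less RNA per cell cannot be told apart.

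Estimated counts summed to between 14461993 and 16659895 per library. *nhr-114* itself had 6954, 8027 and 7436 counts in wild type, against 3, 4 and 4 in mutant vehicle and 3, 2 and 4 in mutant B12. The libraries also differed in genes that change with development. The level of 35 spermatogenesis genes, as the mean log2 CPM relative to the average over the 9 libraries, was 0.04, 0.18 and 0.43 in wild-type replicates 1 to 3. It was -0.46, -1.10 and -0.80 in mutant vehicle and 0.53, 0.67 and 0.50 in mutant B12, so the groups did not overlap. Summed CPM of 18 molting genes ran from 7797 to 10153 in wild type, while mutant vehicle had 6171 to 6247 and mutant B12 5125 to 6840. On the log2 measure used for spermatogenesis, the molting genes were at 0.41, 0.19 and 0.13 in wild type. They were at -0.07, -0.21 and -0.09 in mutant vehicle and -0.28, -0.20 and 0.12 in mutant B12. The part of either gene list in the results below was not tested beyond the fit with the spermatogenesis level as a covariate. That fit is given with each comparison.

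The members are short genes. Their coding sequences had a median of 143 codons and a maximum of 406, against 329 for all protein-coding genes of the WBcel235 annotation, and a median of 3 exons against 5. *ttr-14* (chromosome X, 10787503 to 10789700) was the longest member, with 406 codons and 9 exons. Chromosome V carried 22 of the 58 *ttr* genes, or 37.9%, against 24.99% of all protein-coding genes. Of the members, 18 were on V, 11 on X, 9 on IV, 8 on III, 2 on II and 1 on I.

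Levels of different members were compared per length, as TPM (counts divided by transcript length and scaled to one total). *ttr-16* (chromosome IV, 11063530 to 11064137) had the highest median over the 9 libraries, 1198 TPM. It had 1384 ± 186 TPM in wild type, 1155 ± 120 in mutant vehicle and 1227 ± 99.998 in mutant B12 (SD, n = 3 each). It was followed by *ttr-41* at a median of 349 TPM, *ttr-18* at 341, *ttr-46* at 302, *ttr-48* at 236, *ttr-15* at 228, *ttr-44* at 227 and *ttr-2* at 199. The libraries of *ttr-41*, *ttr-18* and *ttr-46* overlapped in range, and so did those of *ttr-48*, *ttr-15*, *ttr-44* and *ttr-2*, so among these 8 only *ttr-16* stood clear of the others in every group. These 8 members held between 60.9% and 66.0% of the family's TPM in each library. The lowest median was 1.09 TPM, and 29 members had a mean of at least 10 CPM while 15 were below 5 CPM.

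**Figure D1:**
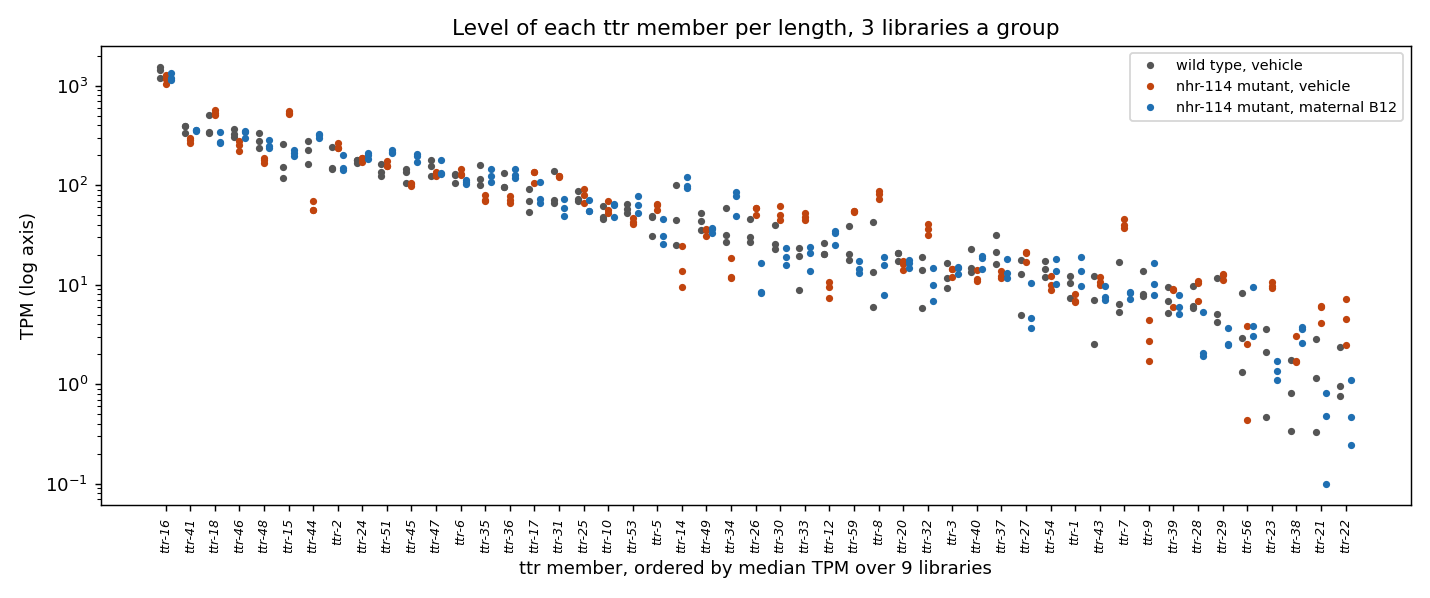
Level of each of the 49 members per length, in TPM on a log axis, with 1 point per library and members ordered by their median. The 9 points of *ttr-16* lie above those of all other members, and *ttr-15* and *ttr-44* show mutant vehicle libraries apart from the other groups in opposite directions.

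The order of the leading members differed between groups. By mean TPM *ttr-15* was 8th in wild type, 2nd in mutant vehicle and 8th in mutant B12. *ttr-44* was 6th in wild type, 20th in mutant vehicle and 4th in mutant B12. Together the members held a small share of all counts. It was 0.210%, 0.170% and 0.220% in the wild-type libraries (0.200 ± 0.0266, SD, n = 3). It was 0.206%, 0.209% and 0.209% in mutant vehicle (0.208 ± 0.00163) and 0.220%, 0.217% and 0.264% in mutant B12 (0.234 ± 0.0260). The wild-type libraries overlapped both other groups, while all 3 mutant B12 libraries lay above all mutant vehicle libraries. That separation was not seen per length, where the share of TPM was 0.490%, 0.481% and 0.560% in mutant B12 and 0.5005%, 0.526% and 0.531% in mutant vehicle, with a lower mean in mutant B12.

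In the first comparison, mutant against wild type with vehicle only, members were called in both directions. Of the 48 members that passed the filter on low counts, 14 were higher in mutant vehicle than in wild type, 9 were lower and 25 were not called (edgeR, Benjamini-Hochberg adjusted p under 0.05 over 14795 genes). That is 47.9% called, where 36.6% of all genes tested were called. By direction, 29.2% of the members were higher against 18.3% of all genes. The share called lower, 18.8%, was close to the 18.3% of all genes. Groups did not overlap for 18 of the 48 members above and 12 of the 48 below wild type. Of the 14795 genes tested, 3920 (26.5%) and 3595 (24.3%) were apart. The median log2 fold change was 0.30 over the members and 0.01 over all genes tested.

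*ttr-15* (chromosome III, 10337847 to 10339440) was the most abundant member with a rise of over 1 on the log2 scale. It had 115, 48.8 and 64.2 CPM in wild type and 259, 252 and 237 CPM in mutant vehicle. Every mutant vehicle library was above every wild-type library, and wild-type replicate 1 was the nearest to them. The rise was 3.28-fold, a log2 fold change of 1.71 ± 0.27 (SE, edgeR adjusted p = 0.00126). *ttr-7* rose from 5.02, 1.82 and 1.42 CPM to 12.01, 11.4 and 13.7 CPM, a log2 fold change of 2.16 ± 0.38 (adjusted p = 0.00158), the second largest of the called members. Its groups lay apart, again with wild-type replicate 1 highest of the 3. *ttr-7* shares 74 exonic bases with *best-17* on the opposite strand, which had 7.32 CPM in wild type and 18.5 in mutant vehicle, so reads of the pair may be mixed if the library kit did not keep strand.

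The largest log2 fold change among the called members was that of *ttr-23*, 2.40 ± 0.47, from 0.849 ± 0.677 to 4.54 ± 0.424 CPM (SD, n = 3 each). *ttr-21* (2.06 ± 0.63), *ttr-8* (1.97 ± 0.60) and *ttr-22* (1.85 ± 0.59) came after *ttr-23* and *ttr-7*. *ttr-22* was the scarcest, at 0.591, 0.182 and 0.237 CPM in wild type and 1.23, 1.88 and 0.617 in mutant vehicle. It passed the low-count filter and the membership rule through its mutant vehicle libraries, so that its difference from the other groups was partly fixed by selection. *ttr-32* rose by 1.62 ± 0.39 on the log2 scale and *ttr-59* by 1.21 ± 0.27. The other rises were *ttr-33*, described below, *ttr-30* (0.99), *ttr-17* (0.95), *ttr-26* (0.86), *ttr-18* (0.55) and *ttr-51* (0.35).

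**Figure D2:**
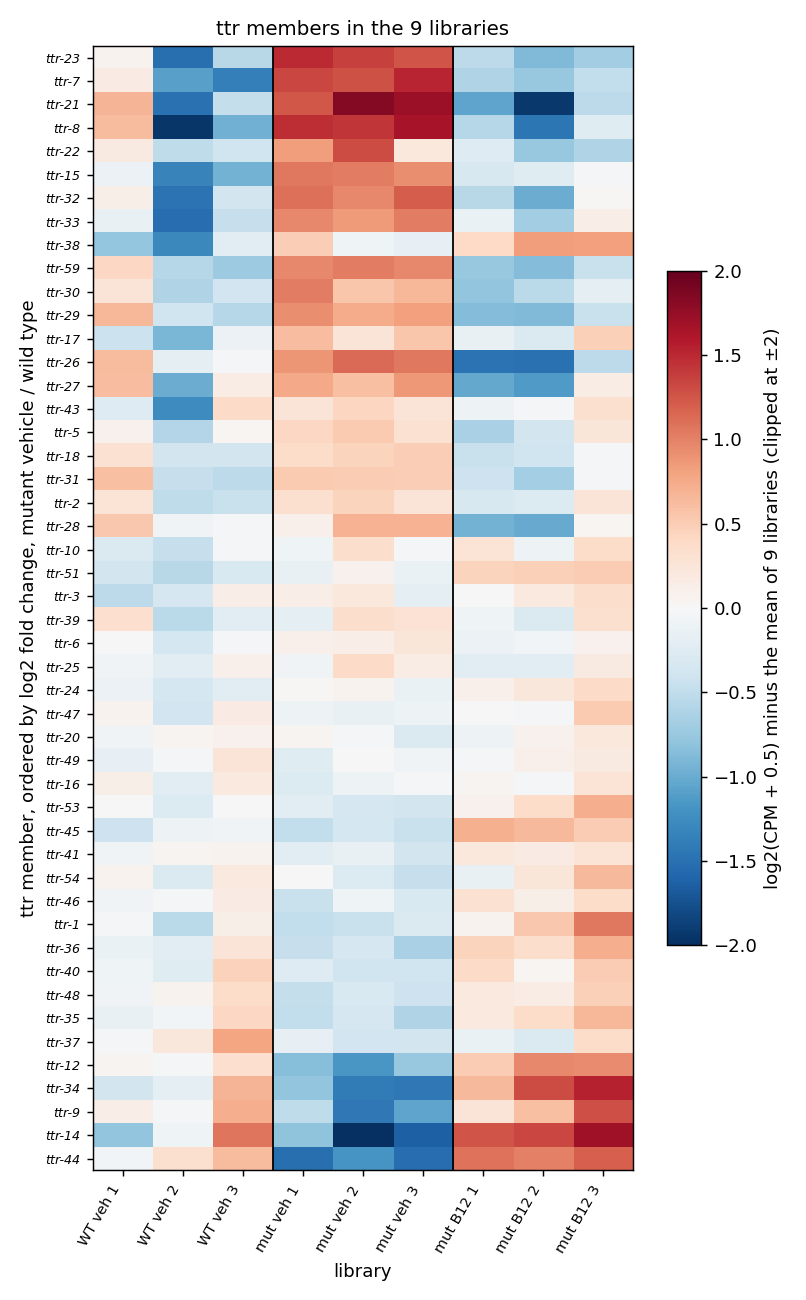
Heatmap of the 48 tested members in the 9 libraries, as log2(CPM + 0.5) minus the member's mean over the libraries, clipped at ±2 and ordered by the fold change of mutant vehicle over wild type. The mutant vehicle libraries are red in the upper rows and blue in the lowest 5, *ttr-12*, *ttr-34*, *ttr-9*, *ttr-14* and *ttr-44*, and wild-type replicate 1 is redder than wild-type replicates 2 and 3 in most of the upper rows.

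Among the members that fell, *ttr-44* (chromosome V, 13529545 to 13530744) had the smallest adjusted p of the family. It had 78.5, 102 and 127 CPM in wild type and 28.3, 35.8 and 27.9 CPM in mutant vehicle. The highest mutant vehicle library was below the lowest wild-type library. The log2 fold change was -1.74 ± 0.17 (edgeR adjusted p = 4.18e-05). *ttr-44* shares 167 exonic bases with R11G10.3 on the opposite strand, which had 4.56 CPM in wild type and 4.33 in mutant vehicle.

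*ttr-14* had 34.6, 56.8 and 127 CPM in wild type and 34.2, 14.2 and 19.1 CPM in mutant vehicle, a log2 fold change of -1.70 ± 0.51. Its groups were apart only narrowly, since wild-type replicate 1 was almost level with mutant vehicle replicate 1. *ttr-34* fell from 10.6, 12.02 and 22.4 CPM to 7.78, 4.89 and 4.81 CPM (-1.37 ± 0.35), with every mutant vehicle library below wild type. *ttr-9* (-1.59) and *ttr-12* (-1.17) also fell, and *ttr-35* (-0.57), *ttr-48* (-0.53), *ttr-36* (-0.47) and *ttr-41* (-0.26) fell by less.

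Of these 23 calls, 12 held when each of the 9 libraries was left out in turn. Without wild-type replicate 3, 10 were lost (*ttr-8*, *ttr-9*, *ttr-14*, *ttr-18*, *ttr-21*, *ttr-22*, *ttr-26*, *ttr-35*, *ttr-36*, *ttr-41*). Without mutant vehicle replicate 3, 8 were lost (*ttr-8*, *ttr-14*, *ttr-18*, *ttr-21*, *ttr-26*, *ttr-35*, *ttr-36*, *ttr-41*), and without mutant vehicle replicate 2, 6 (*ttr-9*, *ttr-18*, *ttr-21*, *ttr-22*, *ttr-26*, *ttr-51*). Wild-type replicate 2 carried 5 calls (*ttr-18*, *ttr-22*, *ttr-26*, *ttr-41*, *ttr-51*), mutant vehicle replicate 1 carried 4 (*ttr-18*, *ttr-22*, *ttr-26*, *ttr-36*), and mutant B12 replicates 1 and 3 each carried 2 (*ttr-8*, *ttr-14*). The highest adjusted p of a lost call in such a fit ran from 0.0551 for *ttr-9* to 0.142 for *ttr-22*. *ttr-8* and *ttr-14* were also not called with no filter on low counts or with the 6 libraries alone, *ttr-18* and *ttr-26* with upper quartile scaling, and *ttr-26* and *ttr-51* with limma on log2(TPM + 1). In a fit with spermatogenesis level as a covariate, 0 members were called in either direction. Of the 23 calls, 18 kept their sign and 5 reversed. In that fit *ttr-44* was at -1.68 ± 0.44 (SE), against -1.74 ± 0.17 without the covariate. *ttr-14* was at 0.97 ± 0.69, against -1.70 ± 0.51. The spermatogenesis level tracks the groups closely (variance inflation 10.9), so its part and that of genotype cannot be told apart in this design.

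**Figure D3:**
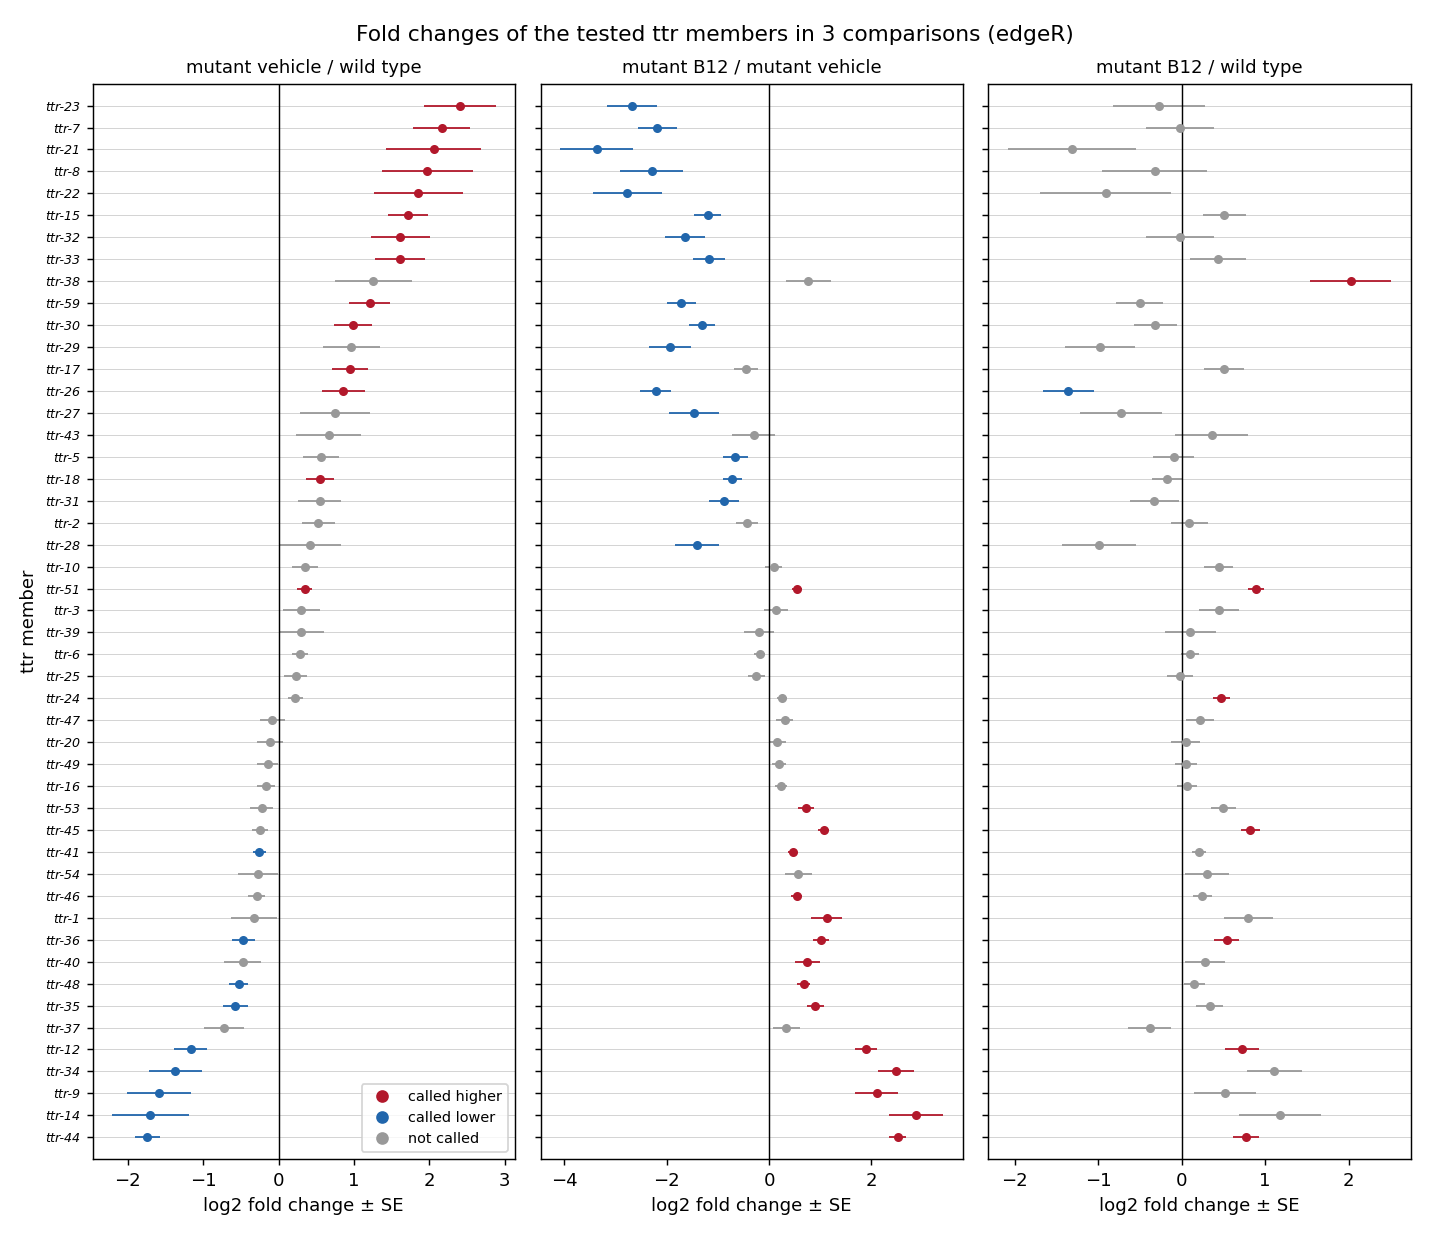
Log2 fold change ± SE of the 48 tested members in the 3 comparisons, with called members in red (higher) or blue (lower) and the others in grey. Rises run from 0.35 to 2.40 in the first panel, and the members at its top and bottom lie on the other side of 0 in the second panel, which shares the mutant vehicle libraries with the first.

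The second comparison concerns maternal B12 in mutant animals, and here most members differed. Of the 48 tested, 15 were higher in mutant B12 than in mutant vehicle, 17 were lower and 16 were not called. That is 66.7% called, against 46.4% of all genes tested. By direction the members had 31.2% higher against 22.6% of all genes, and 35.4% lower against 23.8%. Groups were apart for 18 members above and 19 below, where 27.1% and 32.1% of all genes were. The median was 0.12 over the members and -0.04 over all genes tested. This comparison and the first share the mutant vehicle libraries, so a member that stood out in those libraries moves in both.

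*ttr-44* rose to 174, 164 and 187 CPM in mutant B12 from 28.3, 35.8 and 27.9 CPM in mutant vehicle. The groups were far apart, and every mutant B12 library was also above the highest wild-type library. The log2 fold change was 2.51 ± 0.17 (edgeR adjusted p = 8.22e-06), or 5.71-fold. *ttr-14* had 146, 154 and 197 CPM in mutant B12, a rise of 2.88 ± 0.53 over mutant vehicle. *ttr-34* rose by 2.48 ± 0.35 to 21.9, 34.7 and 40.8 CPM. Both had all mutant B12 libraries above all mutant vehicle libraries.

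*ttr-9* (2.11 ± 0.42) and *ttr-12* (1.89 ± 0.22) rose as well, each of them a member below 15 CPM in every library. Smaller rises were those of *ttr-1* (1.13), *ttr-45* (1.07), *ttr-36* (1.01), *ttr-35* (0.91), *ttr-40* (0.75), *ttr-53* (0.72), *ttr-48* (0.68), *ttr-51* (0.55), *ttr-46* (0.54) and *ttr-41* (0.46). *ttr-41*, *ttr-44*, *ttr-46* and *ttr-48* are among the 8 leading members by TPM.

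On the falling side, *ttr-15* had 99.3, 105 and 120 CPM in mutant B12, against 237 to 259 CPM in mutant vehicle. All 3 mutant B12 libraries were below mutant vehicle, and they overlapped wild type. The log2 fold change was -1.202 ± 0.26 (edgeR adjusted p = 0.00534). *ttr-26* fell from 21.4, 25.4 and 24.0 CPM to 3.78, 3.72 and 7.76 CPM, a change of -2.22 ± 0.31. *ttr-7* fell to 2.74, 2.41 and 3.01 CPM (-2.18 ± 0.38). For both, the highest mutant B12 library was well below the lowest mutant vehicle library.

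The lowest log2 fold changes belonged to scarce members, *ttr-21* (-3.37 ± 0.72), *ttr-22* (-2.77 ± 0.67) and *ttr-23* (-2.67 ± 0.49), which were at 0.666 ± 0.525, 0.171 ± 0.121 and 0.701 ± 0.151 CPM in mutant B12. The fall of *ttr-22* carries the same limit of selection as its rise. *ttr-8* (-2.30), *ttr-29* (-1.94), *ttr-59* (-1.72), *ttr-32* (-1.64), *ttr-27* (-1.47), *ttr-28* (-1.41), *ttr-30* (-1.30) and *ttr-33* (-1.17) fell by more than 1 on that scale. *ttr-31* (-0.87), *ttr-18* (-0.72) and *ttr-5* (-0.66) fell by less.

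Of these 32 calls, 27 held when each library was left out in turn. The other 5 were lost without some libraries of the 2 mutant groups, and the highest adjusted p was 0.158 for *ttr-5*, 0.104 for *ttr-27*, 0.0958 for *ttr-31*, 0.0841 for *ttr-28* and 0.0830 for *ttr-40*. *ttr-5* was lost without each mutant vehicle library, mutant B12 replicates 1 and 2, or wild-type replicate 3, and *ttr-31* without each mutant vehicle library or mutant B12 replicates 1 and 2. *ttr-27* was lost without mutant vehicle replicates 1 or 3 or mutant B12 replicates 1 or 2, and *ttr-28* without mutant vehicle replicates 2 or 3 or the same mutant B12 libraries. *ttr-40* was lost without mutant vehicle replicates 2 or 3 or mutant B12 replicates 1 or 3. *ttr-5* was also not called under RLE or upper quartile scaling or under either other filter, *ttr-31* under upper quartile scaling or no filter, and *ttr-40* with limma on log2(TPM + 1). With the spermatogenesis level as a covariate, 0 members were called in either direction, and only 2 genes of the whole table were called higher and 33 lower. Of the 32 calls, 27 kept their sign and 5 reversed. In that fit *ttr-44* was at 2.43 ± 0.56 (SE), against 2.51 ± 0.17 without the covariate. *ttr-14* was at -0.51 ± 0.86, against 2.88 ± 0.53. Since the covariate tracks the groups closely (variance inflation 10.9), a lost call does not show that a difference is absent.

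**Figure D4:**
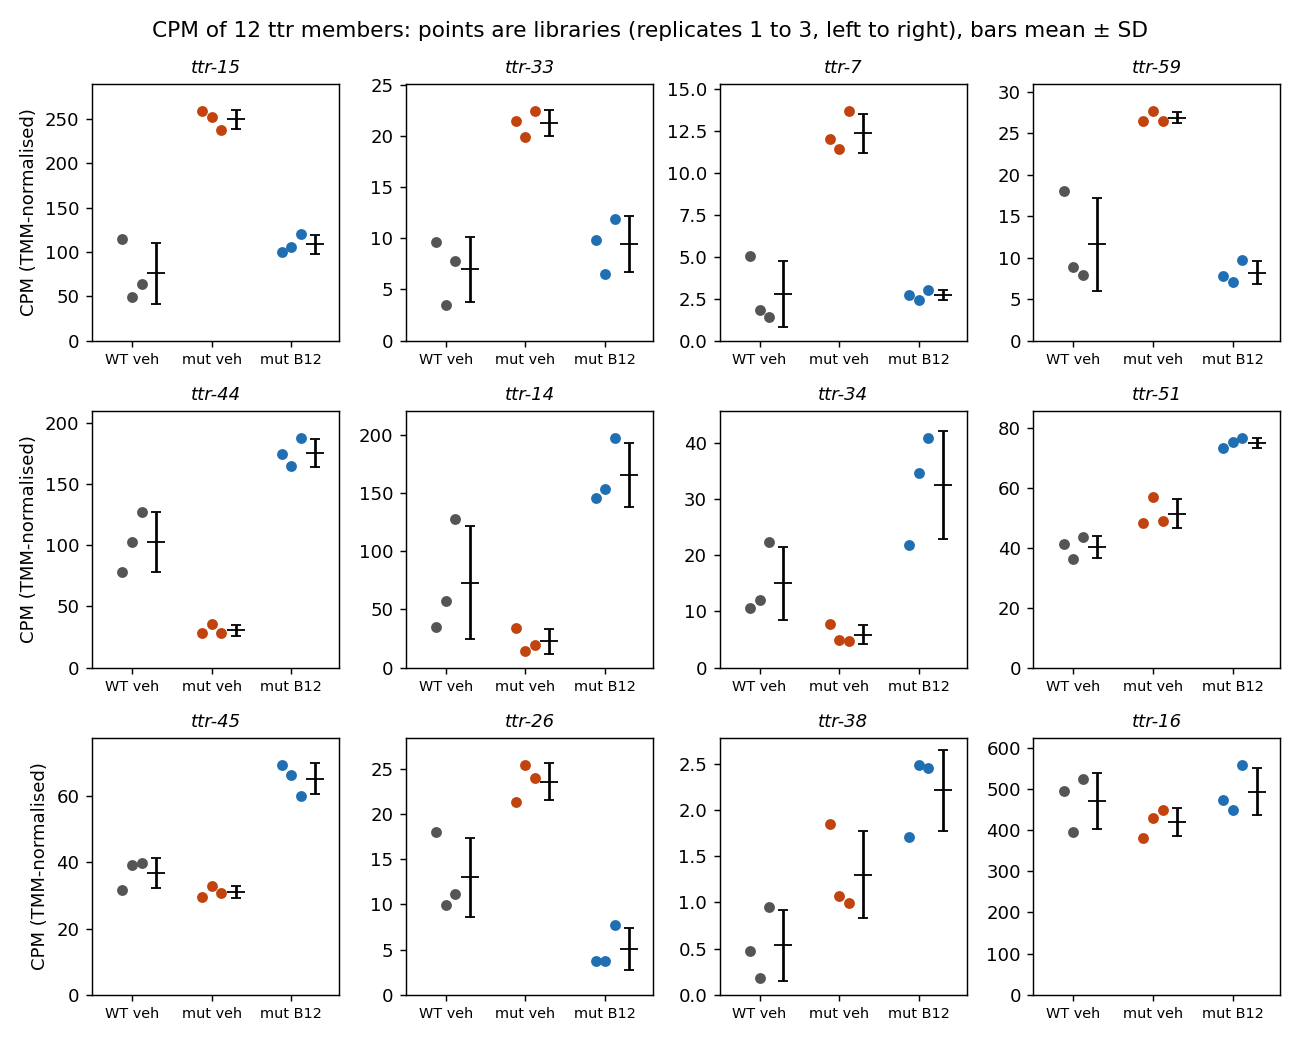
CPM of 12 members in each library (points, replicates 1 to 3 from left to right) with the group mean ± SD beside them, on axes that start at 0. *ttr-15*, *ttr-33*, *ttr-7* and *ttr-59* are highest in mutant vehicle, *ttr-44*, *ttr-14* and *ttr-34* are lowest there, and *ttr-51* and *ttr-45* have all 3 mutant B12 libraries above the other 6.

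The third comparison set the mutant with B12 against wild type, and few members differed. Of the 48 tested, 7 were higher in mutant B12, 1 was lower and 40 were not called. That is 16.7% called, against 13.4% of all genes tested, with 14.6% higher against 7.28% and 2.08% lower against 6.13%. Groups were apart for 10 members above and 1 below, against 15.9% and 15.3% of all genes. The median was 0.18 over the members and -0.00 over all genes. This comparison shares its libraries with the other two.

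*ttr-51* (chromosome IV, 13250655 to 13252311) had 41.4, 36.4 and 43.5 CPM in wild type, 48.4, 57.0 and 48.9 in mutant vehicle and 73.4, 75.4 and 76.7 in mutant B12. The 3 groups did not overlap, and it was higher in mutant B12 than in wild type by 0.89 ± 0.10 (edgeR adjusted p = 0.000283). It was the member with the smallest relative spread in mutant B12, a coefficient of variation of 2.17%. *ttr-45*, its direct neighbour, had 31.6, 39.2 and 39.9 CPM in wild type and 69.3, 66.4 and 60.03 in mutant B12, a rise of 0.82 ± 0.11 (adjusted p = 0.000967). All mutant B12 libraries were above the other 6. These were the only 2 members called when the spermatogenesis level was a covariate, *ttr-51* at 0.96 ± 0.13 (adjusted p = 0.00219) and *ttr-45* at 0.80 ± 0.15 (adjusted p = 0.0116).

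*ttr-44* was higher than in wild type by 0.77 ± 0.16 (edgeR adjusted p = 0.0114) and *ttr-24* by 0.47 ± 0.10 (adjusted p = 0.0117), from 70.3 ± 5.80 to 97.7 ± 9.57 CPM (SD, n = 3 each). *ttr-38* rose by 2.03 ± 0.49 from a low level, 0.473, 0.182 and 0.946 CPM in wild type against 1.71, 2.48 and 2.45 in mutant B12. *ttr-12* (0.73) and *ttr-36* (0.54) also rose. *ttr-26*, the single member below wild type, had 17.96, 9.90 and 11.1 CPM there and 3.78, 3.72 and 7.76 CPM in mutant B12, with the groups apart (-1.36 ± 0.31, adjusted p = 0.0169).

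The calls of *ttr-51*, *ttr-45*, *ttr-44* and *ttr-24* held without each library in turn, though *ttr-24* was not called with limma on log2(TPM + 1) (adjusted p = 0.107). *ttr-26* was lost without mutant B12 replicates 1 or 2, at an adjusted p of up to 0.0668. *ttr-38* was lost without wild-type replicates 1 or 2 or mutant B12 replicates 2 or 3 (up to 0.0648). *ttr-12* was lost without wild-type replicates 1 or 2, mutant vehicle replicates 1 or 3, or mutant B12 replicates 2 or 3 (up to 0.132), and *ttr-36* without these libraries or mutant B12 replicate 1 (up to 0.130). *ttr-12* and *ttr-36* were also not called with the 6 libraries compared alone or with limma.

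*ttr-33* (chromosome V, 7837093 to 7837909, minus strand) was a member with a known role. It had 9.69, 3.46 and 7.75 CPM in wild type, 21.5, 19.96 and 22.5 in mutant vehicle and 9.88, 6.47 and 11.95 in mutant B12. The mutant vehicle libraries were above all others, and wild type and mutant B12 overlapped. The rise in mutant vehicle was 1.61 ± 0.33 (edgeR adjusted p = 0.00378) and the fall with B12 was -1.17 ± 0.32 (adjusted p = 0.0134). Against wild type, mutant B12 was not called (adjusted p = 0.436).

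The gene lies wholly within the span of *mig-6*, on the opposite strand, with 0 exonic bases in common. It shares 42 exonic bases with *txt-5* on its own strand, which had 4.22 CPM in wild type, 7.33 in mutant vehicle and 3.27 in mutant B12. Of 9 genes of dopaminergic neurons, 0 were called in the first comparison, where 36.6% of all genes tested were. In the second, 2 of the 9 were higher and 0 lower, where 22.6% of all genes were higher and 23.8% lower. The share higher was thus close to that of all genes. The 2 were *bas-1*, the aromatic amino acid decarboxylase of dopamine and serotonin synthesis (0.43 ± 0.11), and *dop-2*, a dopamine receptor (0.68 ± 0.21).

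*ttr-52*, the bridging molecule of corpse engulfment, was below the threshold. It had 2, 5 and 7 counts in wild type, 1, 8 and 2 in mutant vehicle and 5, 2 and 4 in mutant B12, too few for the filter, so it was not tested, and the groups overlapped. Of 18 genes of corpse engulfment, 4 were called higher in mutant vehicle than in wild type and 1 was called lower. Of all genes tested, 18.3% were higher and 18.3% lower, so the share called higher was close to the background. Groups were apart for 11 of the 18 above wild type and 1 below, where 26.5% and 24.3% of all genes were. The median log2 fold change was 0.18 over the list and 0.01 over all genes tested. The 4 called higher were the Rac GTPase *ced-10* (0.43 ± 0.08), the adaptor *ced-6* (0.55 ± 0.12), the lipid kinase *vps-34* (0.30 ± 0.07) and the sorting nexin *snx-1* (0.26 ± 0.08). The engulfment receptor gene *psr-1* was called lower (-0.38 ± 0.10).

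With maternal B12, 1 of the 18 was higher and 6 were lower, where 22.6% of all genes tested were higher and 23.8% lower. Among the lower ones was the receptor *ced-1*, at -0.92 ± 0.17. *ced-1* had 85.9, 92.1 and 87.8 CPM in mutant vehicle and 48.4, 41.03 and 51.1 in mutant B12, so the groups were apart. Wild type had 84.5, 56.7 and 50.3 CPM, with replicate 1 close to mutant vehicle and replicate 3 within the range of mutant B12. Of 6 genes of phosphatidylserine exposure, 3 were higher in mutant vehicle than in wild type and 1 was lower, and with B12 0 were higher and 2 lower, counts of so few genes that they are read only beside the same all-gene shares. Those 2 were the aminophospholipid translocase *tat-1* (-0.26 ± 0.07) and its chaperone *chat-1* (-0.35 ± 0.08). The 5-hydroxyisourate hydrolase relative R09H10.3 was not called in any comparison, at 72.0, 69.8 and 69.1 CPM in wild type, 64.7, 73.2 and 70.3 in mutant vehicle and 57.6, 50.6 and 66.3 in mutant B12. Its companion ZK697.8 was at 0 in every library.

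Many members sit side by side. The 58 genes included 16 directly neighbouring pairs, and 13 of these joined members, 23 members in all. Of those 13 pairs, 8 were on the same strand, and the gaps ran from 33 to 1913 bases. *ttr-8* and *ttr-32* on chromosome III were both higher in mutant vehicle (1.97 and 1.62) and both lower with B12 (-2.30 and -1.64). *ttr-59* and *ttr-30* on X did the same (1.21 and 0.99, then -1.72 and -1.30). *ttr-36* and *ttr-35*, 89 bases apart on X, were both lower in mutant vehicle (-0.47 and -0.57) and both higher with B12 (1.01 and 0.91).

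In other runs of neighbours the calls differed. Of *ttr-24*, *ttr-25* and *ttr-26*, which follow each other on chromosome V, *ttr-25* was called in no comparison, at 27.3 ± 3.24 CPM in wild type, 31.9 ± 5.18 in mutant vehicle and 26.9 ± 4.72 in mutant B12 (SD, n = 3 each). *ttr-26* was called in all 3. *ttr-17* rose in mutant vehicle, from 21.8, 15.5 and 27.2 to 45.5, 35.6 and 43.7 CPM, while the adjusted p of *ttr-16* beside it was 0.320. A difference between such neighbours was not tested. *ttr-27*, *ttr-28* and *ttr-29*, also on V, were called alike, lower with B12 and not called between mutant vehicle and wild type. *ttr-51* and *ttr-45* were both higher in mutant B12 than in each other group. Between mutant vehicle and wild type they differed, with *ttr-51* called higher (0.35) and *ttr-45* not called (-0.25).

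**Figure D5:**
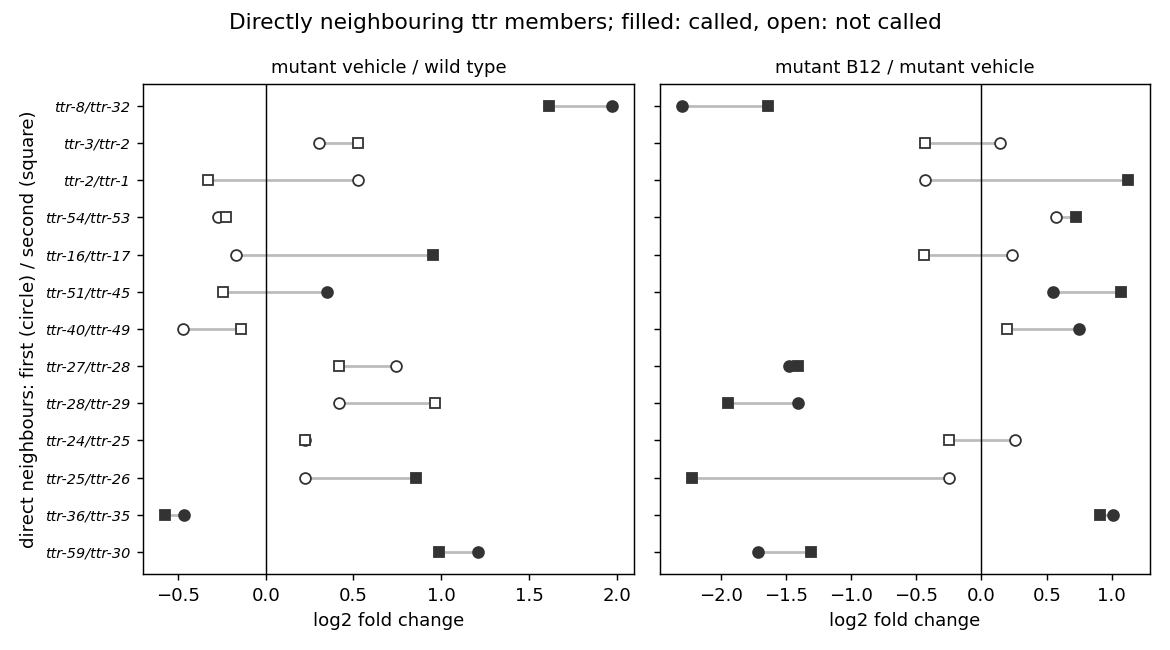
Log2 fold changes of the 13 pairs of directly neighbouring members in the first and second comparisons, with the first gene of each pair as a circle and the second as a square, filled where called. The pairs *ttr-8*/*ttr-32*, *ttr-36*/*ttr-35* and *ttr-59*/*ttr-30* are filled in both panels with both genes on the same side of 0, and *ttr-25*/*ttr-26* has 1 filled symbol in each.

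The wild-type libraries were uneven for this family. The median coefficient of variation of the tested members was 29.1% in wild type, 9.37% in mutant vehicle and 19.9% in mutant B12, against 14.9%, 10.6% and 14.3% over all genes with a mean of at least 0.5 CPM. Of the 14 members higher in mutant vehicle than in wild type, 12 had their highest wild-type value in replicate 1, which was so for 46.7% of all genes called higher. Of the 9 lower members, all 9 had it in replicate 3, against 57.4% of all genes called lower. All 17 members that fell with B12 had it in replicate 1, against 47.8% of all genes that fell. All 15 that rose had it in replicate 3, against 61.2%.

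Wild-type replicate 1 had the lowest spermatogenesis level of its group and replicate 3 the highest, and mutant vehicle was below and mutant B12 above all of wild type on that measure. Of the 35 tested spermatogenesis genes, 0 were higher and 22 lower in mutant vehicle than in wild type, and 27 were higher and 1 lower with B12. Their summed CPM was 389 to 513 in wild type, 193 to 280 in mutant vehicle and 595 to 662 in mutant B12, with none at 0 in every library. Among 18 molting genes, 3 were higher and 8 lower in mutant vehicle, and 7 were higher and 8 lower with B12. The molting gene *mlt-10* fell by 2.24 ± 0.25 on the log2 scale in mutant vehicle, and *nhr-23*, a nuclear receptor that drives molting, was higher there (0.65 ± 0.22). *nhr-23* had 77.6, 38.8 and 43.5 CPM in wild type, with replicate 1 close to the 77.2, 93.5 and 81.0 CPM of mutant vehicle, and 34.5, 35.3 and 31.4 CPM in mutant B12. Of 17 intestinal genes 10 were higher and 0 lower in mutant vehicle, and with B12 2 were higher and 10 lower. Of 13 genes of hypodermis and seam 3 were higher and 5 lower in mutant vehicle, and with B12 3 were higher and 6 lower. Their summed CPM in mutant vehicle was 12769 to 14856 and 2902 to 3994, against 10955 to 14365 and 6244 to 7100 in wild type. In mutant B12 it was 11409 to 12096 and 6608 to 8756. As the mean log2 level, which weighs genes alike, the intestinal genes were at -0.34, -0.14 and -0.11 in wild type. They were at 0.31, 0.40 and 0.23 in mutant vehicle, above all other libraries, and -0.08, -0.15 and -0.13 in mutant B12. Within the hypodermis and seam list, *dpy-13* and *sqt-3* had the highest CPM in every library. On the same log2 level, that list was at 0.38, 0.10 and 0.07 in wild type. It was at 0.15, -0.04 and 0.11 in mutant vehicle and -0.42, -0.37 and 0.03 in mutant B12. Of its 13 genes, 1 was higher and 5 were lower in mutant B12 than in wild type, against 7.28% and 6.13% of all genes. The part of these tissues in the family's differences was not tested. Counts of these lists stand beside 18.3% higher and 18.3% lower of all genes tested in the first comparison. For the second these shares were 22.6% and 23.8%. Without wild-type replicate 1, 18 members were higher in mutant vehicle than in wild type and 12 were lower, while over all genes 2824 were higher and 2733 lower, against 2714 and 2708 with it.

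Members called in no comparison were *ttr-2*, *ttr-3*, *ttr-6*, *ttr-10*, *ttr-16*, *ttr-20*, *ttr-25*, *ttr-37*, *ttr-39*, *ttr-43*, *ttr-47*, *ttr-49* and *ttr-54*. They included abundant genes. *ttr-6* had 43.1, 33.7 and 41.9 CPM in wild type, 46.5, 47.3 and 50.98 in mutant vehicle and 39.8, 41.7 and 45.9 in mutant B12. Its mutant vehicle libraries lay above all others, but the adjusted p was 0.0651 against wild type. *ttr-20* had between 5.62 and 8.11 CPM in all 9 libraries, with the groups overlapping. *ttr-56* was not tested, at 7, 3 and 20 counts in wild type, 6, 9 and 1 in mutant vehicle and 10, 7 and 23 in mutant B12.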

How the data were processed

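RNA was extracted with TRIzol and libraries were made with an NEBNext Ultra kit and read as paired ends, per the labels. The strandedness of these libraries was not given in the sources used here. The authors deposited estimated counts of 30939 transcripts per library, quantified by kallisto 0.46.0 on WormBase release WS245, per the labels and the submitters' processing notes, which also name bcl2fastq. The authors also deposited a CPM table per gene, used for membership. Transcript and effective lengths deposited with the counts served to compute TPM.

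Estimated counts were summed per gene to 20444 genes and rounded. Within 1%, 99.7% of 19010 matched genes had the CPM of the deposited table. All 58 *ttr* genes were matched to the Ensembl annotation of WBcel235, the source of coordinates and exons. No sequences are printed, since no sequence table was used here.

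Tests used edgeR 4.0.16 in R 4.3.3: filterByExpr, TMM, robust quasi-likelihood fits over the 9 libraries, Benjamini-Hochberg adjustment over 14795 genes, calls at 0.05. CPM values by library are TMM-normalised. The fits were also run on simulated counts with the same spread for every gene. That run cannot show how they behave on these libraries, where the spread differed between groups. As alternatives the fits used upper quartile or RLE scaling, no filter, 5 CPM in 3 libraries, 6 libraries only, DESeq2 1.42.0, a replicate block, limma 3.58.1 on deposited CPM (log2, pseudocounts 1 and 0.1) and on log2(TPM + 1), the spermatogenesis level as a covariate, and leaving out each library. Same-numbered libraries of different groups did not deviate together in every pair (r from -0.22 to 0.37, against -0.42 to 0.27 for other pairs). The block is therefore only an alternative, and whether the numbers mark a shared culture or batch stayed unknown. No 2 replicates were near sampling noise (chi-square per gene at least 6.96).

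Members and lists were chosen with earlier results of these data known. Genes named are the members with known roles, the 8 highest by TPM, the 10 largest rises and falls called per comparison, direct neighbours, those at the threshold and the 3 smallest adjusted p of each list. Others were named after their values were seen. Python 3.11.15 with numpy 2.4.6, pandas 2.3.3 and matplotlib 3.10.9 was used.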

Additional observations from a re-analysis of the deposited data

How the results depend on the processing

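Under RLE or upper quartile scaling, either filter, 6 libraries only, DESeq2 and limma on deposited CPM, the 6 counts of called members stayed within 1.5 times. With the replicate number as a block, 12 members were higher and 6 lower in the first comparison, 15 and 18 in the second, and 5 and 1 in the third. The block ended the calls of *ttr-14*, *ttr-18*, *ttr-26*, *ttr-36* and *ttr-41* in the first and *ttr-12* and *ttr-36* in the third.

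With the spermatogenesis level as a covariate, the members called were 0 higher and 0 lower in the first comparison, 0 and 0 in the second, and 2 and 0 in the third. All genes called were then 237 and 75, 2 and 33, and 457 and 327, against 2714 and 2708, 3338 and 3528, and 1077 and 907. Of the member calls, 18 kept their sign in the first comparison and 27 in the second, all short of a call. Log2 fold changes (± SE) reversed in the first, without a call, for *ttr-18* (-0.0379 ± 0.38), *ttr-26* (-0.0178 ± 0.60), *ttr-14* (0.97 ± 0.69), *ttr-9* (0.0366 ± 0.87) and *ttr-34* (0.22 ± 0.65). In the second they reversed, also without a call, for *ttr-18* (0.0909 ± 0.51), *ttr-14* (-0.51 ± 0.86), *ttr-9* (-0.0509 ± 1.09), *ttr-28* (0.64 ± 1.19) and *ttr-31* (0.29 ± 0.81). The cause was not tested.

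On log2(TPM + 1), 4 members were higher and 3 lower in the third comparison, and 3758 genes were lower. That scale moved the median of all genes to -0.08, -0.16 and -0.22 in the 3 comparisons. The family's share of TPM was 0.515% in wild type, 0.519% in mutant vehicle and 0.511% in mutant B12.

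Leaving out each library gave 9 to 18 members higher and 4 to 12 lower in the first comparison, 14 to 16 and 13 to 19 in the second, and 4 to 10 and 0 to 2 in the third. The first had 9 higher without mutant vehicle replicate 2, and 4 lower without wild-type replicate 3 or 5 without mutant vehicle replicate 3. The third had 4 higher without wild-type replicate 2 or mutant B12 replicates 2 or 3, and 0 lower without mutant B12 replicates 1 or 2 or 2 lower without replicate 3. Shares of counts then ran from 0.190% to 0.215% in wild type, 0.208% to 0.209% in mutant vehicle and 0.219% to 0.242% in mutant B12. Over all genes, calls in the third comparison ran from 673 to 1216 higher and 555 to 901 lower. A threshold of 1 CPM gave 47 members and 5 CPM gave 34. Low counts limit *ttr-21*, *ttr-22*, *ttr-52* and *ttr-56*.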
